A study of Homo sapiens with 6 samples.

Results

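Chromosome 19 carries the largest collection of zinc finger genes of the human genome, and the results below follow these genes after SNHG17, a long noncoding RNA, was lowered in cells labelled Hep3B. Members were taken by name and place alone, as every gene of chromosome 19 whose symbol is ZNF followed by a number and at most a letter A or B. This gave 249 of the 58243 genes in the deposited table, 84 on the short arm (19p) and 165 on the long arm (19q). Hep3B is a human liver cancer line. The cells were grown in DMEM with fetal bovine serum and transfected with either the small interfering RNA si-SNHG17-1, which targets SNHG17, or the control si-NC. Each group had 3 libraries of total RNA, and only 1 siRNA against SNHG17 was used in these libraries. Whether the replicates of a group came from different cultures is not stated, so the p-values describe spread between these libraries only, and that spread may be technical.

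Most of these genes encode proteins with a row of C2H2 zinc fingers, which read DNA sequence, behind a KRAB domain. The KRAB domain is known to recruit TRIM28 and, through it, the histone methyltransferase SETDB1 and HP1 proteins, and many of these proteins silence transposable elements. The genes arose by repeated local duplication and therefore lie in clusters of related neighbours.

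Total counts ranged from 30207055 to 42271168 per library. SNHG17 itself was counted at 843, 953 and 948 in the si-NC libraries and at 307, 338 and 254 in the si-SNHG17-1 libraries, 35.2% of the control level. Defining markers of hepatocytes were nearly absent from all 6 libraries. The summed level of AFP, ALB, APOA1, APOB, TTR and GPC3 was between 0.933 and 1.54 CPM, counts scaled to a common library total, and TTR and GPC3 stood at 0 throughout, so the label Hep3B is used below only as a name. Of 2 endothelial markers, CDH5 was called higher (log2 fold change 1.79), a call kept in 4 of the 6 fits that omit a library. PECAM1 went from 1.37 to 0.592 CPM (-1.20) with all treated libraries below all controls and was not called (edgeR adjusted p = 0.153). The pair summed to 2.17 to 3.62 CPM in si-NC against 5.60 to 7.22 CPM in si-SNHG17-1. Of 3 fibroblast markers, COL1A1 was called higher (0.36) but lost the call with any library left out (edgeR adjusted p up to 0.138). PDGFRB lay lower in all treated libraries without being called (-0.28, 8.11 to 6.65 CPM), and COL1A2 stood at 0 in every library. The sum of the 3 was 88.8 to 93.5 CPM in si-NC against 103 to 124 CPM in si-SNHG17-1. The 3 blood markers summed to 0.285 to 1.01 CPM over all libraries with none called. The part of these markers in the results below was not tested.

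Promoter sequences are shown first. The cluster that moved most, which holds ZNF724, shares a promoter word that no matched 19q member holds on its own strand. The word is not particular to that cluster. It was also in 18 of 24 matched members of the ZNF653 to ZNF791 cluster and 4 of 5 of the ZNF554 to ZNF77 cluster, both on 19p. It was chosen after the promoters were read, and a link between the word and the changes was not tested. The sequences are from RefSeq (GRCh38.p14), written 5′ to 3′ on the gene's own strand, and each lies upstream of the gene's RefSeq start site. Capitals mark the 8-base word TCCAATCA, which holds the CCAAT box, letters that the factor NF-Y is known to bind. The first 6 are the genes of the ZNF724 cluster called higher after si-SNHG17-1, and ZNF700 is the most abundant gene per kb of exon in another 19p cluster with the word, none of whose genes was called.
ZNF724, chr19:23250415-23250488, minus strand: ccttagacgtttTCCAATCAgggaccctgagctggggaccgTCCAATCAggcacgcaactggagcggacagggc
ZNF100, chr19:21767617-21767643, minus strand: ggctggaaaccgTCCAATCAggcatgc
ZNF430, chr19:21020558-21020631, plus strand: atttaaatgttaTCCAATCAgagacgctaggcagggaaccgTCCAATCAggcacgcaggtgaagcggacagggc
ZNF93, chr19:19900849-19900922, plus strand: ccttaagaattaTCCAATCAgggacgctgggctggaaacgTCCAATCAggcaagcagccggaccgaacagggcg
ZNF675, chr19:23687213-23687277, minus strand: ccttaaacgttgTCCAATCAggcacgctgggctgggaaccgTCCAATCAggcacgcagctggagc
ZNF101, chr19:19668756-19668807, plus strand: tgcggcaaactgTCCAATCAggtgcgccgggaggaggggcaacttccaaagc
ZNF700, chr19:11925030-11925079, plus strand: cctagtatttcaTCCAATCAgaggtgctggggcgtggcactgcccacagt

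The next 3 belong to genes of other clusters that were also called higher, shown as a contrast because their promoters lack the word.
ZNF426, chr19:9538646-9538720, minus strand: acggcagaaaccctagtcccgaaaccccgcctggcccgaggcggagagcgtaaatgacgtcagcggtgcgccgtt
ZNF766, chr19:52269512-52269582, plus strand: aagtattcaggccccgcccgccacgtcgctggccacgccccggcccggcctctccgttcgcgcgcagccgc
ZNF134, chr19:57614167-57614241, plus strand: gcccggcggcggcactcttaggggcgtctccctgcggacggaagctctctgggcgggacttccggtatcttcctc

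After si-SNHG17-1 the chromosome 19 ZNF genes were shifted upward as a group, and few of them moved far enough to be called on their own. Genes were called at a Benjamini-Hochberg adjusted p under 0.05 in edgeR's quasi-likelihood test, adjusted over all 18679 genes with enough counts to test. Of the 190 members that passed this filter, 18 were called higher and 2 lower, which is 9.47% and 1.05%, while 5.25% of all genes tested were called higher and 5.21% lower. The median log2 fold change of the 190 was 0.29, with quartiles of 0.01 and 0.65, and 145 (76.3%) were positive. Over all genes tested the median was -0.00 and 49.8% were positive.

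The 3 si-SNHG17-1 libraries lay entirely above the 3 si-NC libraries for 58 tested members and entirely below for 5, while 16.4% of all genes tested did the former and 17.3% the latter. Summed over the tested members, the level was 1656, 1736 and 1667 CPM in si-NC against 1958, 1983 and 1957 CPM in si-SNHG17-1. Every treated library therefore exceeded every control library. In bulk RNA, more RNA per cell and more cells making it cannot be told apart. The remaining 59 members had too few counts to test, and 25 of these were at 0 in every library. With every member that had any count included, 224 in all, the median was 0.28. The count of 18 higher fell to 9 when si-NC replicate 3 was omitted, and to 5, 11 and 5 when si-SNHG17-1 replicate 1, 2 or 3 was, whereas the median stayed between 0.25 and 0.32 with any library left out.

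**Figure D1:**
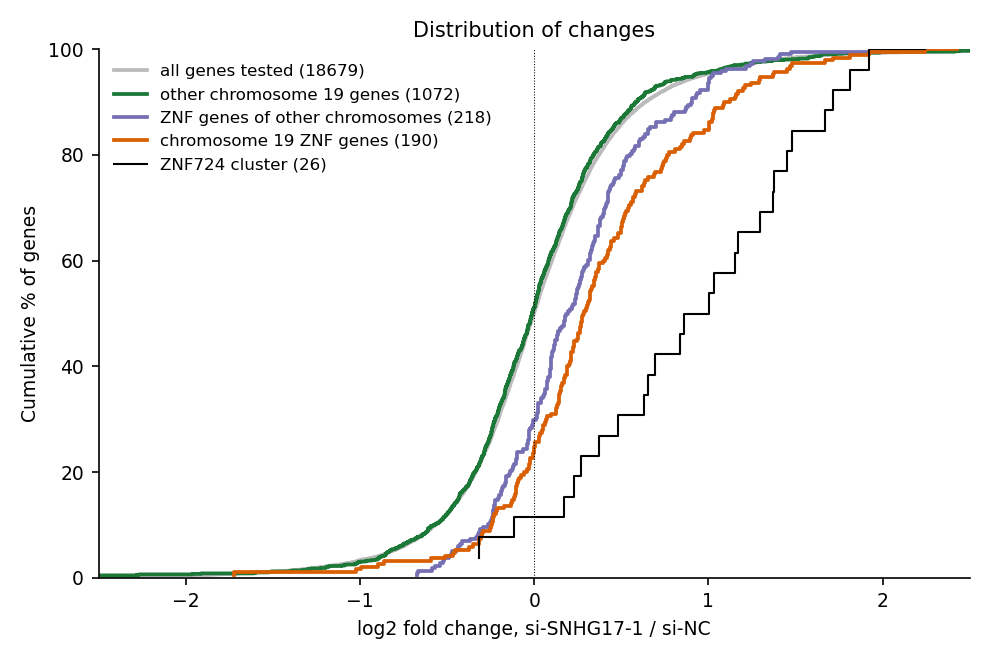
Cumulative percentage of genes (vertical axis) up to each log2 fold change of si-SNHG17-1 against si-NC (horizontal axis), for 5 sets of tested genes. The curve of the 190 chromosome 19 ZNF genes lies to the right of that of all genes (medians 0.29 and -0.00), and the curve of the 26 genes of the ZNF724 cluster lies farthest right (median 1.02).

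The members are weakly expressed genes. Their median level was 5.67 CPM against 16.7 CPM over all genes tested, and 89 of the 190 were under 5 CPM. The median was above 0 from the weakest to the moderately expressed members and close to 0 in the few strongest. The median log2 fold change was 0.23 under 1 CPM (16 genes), 0.38 from 1 to 2 CPM (18), 0.42 from 2 to 5 CPM (55), 0.32 from 5 to 10 CPM (53) and 0.25 from 10 to 20 CPM (29). For the 19 members at 20 CPM or more it was -0.01, with 47.4% positive. The 94 ZNF genes of other chromosomes at that level had a median of 0.16, with 67.0% positive. All genes tested in the same ranges had medians between -0.03 and 0.06.

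Among the most abundant members, ZNF358 stood at 80.5, 68.7 and 77.0 CPM in si-NC against 104, 98.5 and 89.6 CPM in si-SNHG17-1. Its groups did not overlap, and with a log2 fold change of 0.37 it fell just outside the threshold (edgeR adjusted p = 0.0521). ZNF146, which consists of zinc fingers without a KRAB domain, had a log2 fold change of 0.28 and overlapping groups (edgeR adjusted p = 0.175). ZNF787 had -0.10 (edgeR adjusted p = 0.572), with 79.9 ± 4.67 CPM in si-NC, 74.7 ± 6.11 CPM in si-SNHG17-1 (SD, n = 3 each) and overlapping groups.

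By position, the members fell into 16 clusters when a gap of more than 1 Mb between neighbours started a new cluster. The 2 arms had like medians, 0.32 over 63 tested members on 19p and 0.27 over 127 on 19q. On each arm 9 were called higher and 1 lower. These counts are 14.3% and 1.59% on 19p and 7.09% and 0.79% on 19q, beside 5.25% and 5.21% of all genes tested. The counts called higher on 19p and 19q became 10 and 5 when si-NC replicate 2 was omitted, 5 and 4 when si-NC replicate 3 was, and 3 and 2, 6 and 5, and 4 and 1 when si-SNHG17-1 replicate 1, 2 or 3 was. The clusters within an arm differed more than the arms did. The ZNF724 cluster, next to the centromere on 19p from 19.7 to 24.1 Mb (ZNF101 to ZNF254), had a median of 1.02. The 2 large 19p clusters before it had medians of 0.07 (ZNF557 to ZNF846, 13 tested) and 0.14 (ZNF653 to ZNF791, 19 tested). On 19q the medians of the large clusters were 0.47 (ZNF565 to ZNF573, 20 tested), 0.41 (ZNF575 to ZNF296, 22 tested), 0.50 (ZNF175 to ZNF331, 28 tested) and 0.17 (ZNF628 to ZNF446, 45 tested).

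Called genes were few in every cluster and did not follow the medians. Of all genes tested, 5.25% were called higher and 5.21% lower. The ZNF565 to ZNF573 cluster had no gene called although 17 of its 20 tested genes were positive. At an unadjusted p under 0.05 in edgeR, 5 of its genes were higher and 0 lower, while 13.1% of all genes tested were higher and 13.7% lower at that threshold. The ZNF175 to ZNF331 cluster had 4 called higher (14.3%) and 26 of 28 positive. The ZNF628 to ZNF446 cluster, the largest with 59 members, had 31 of 45 positive. In it 3 were called higher, which at 6.67% is near the share of all genes. Without the ZNF724 cluster, the other 164 tested members had a median of 0.25, with 121 positive. Of these 164, 12 were called higher (7.32%) and 2 lower (1.22%), beside 5.25% and 5.21% of all genes tested.

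**Figure D2:**
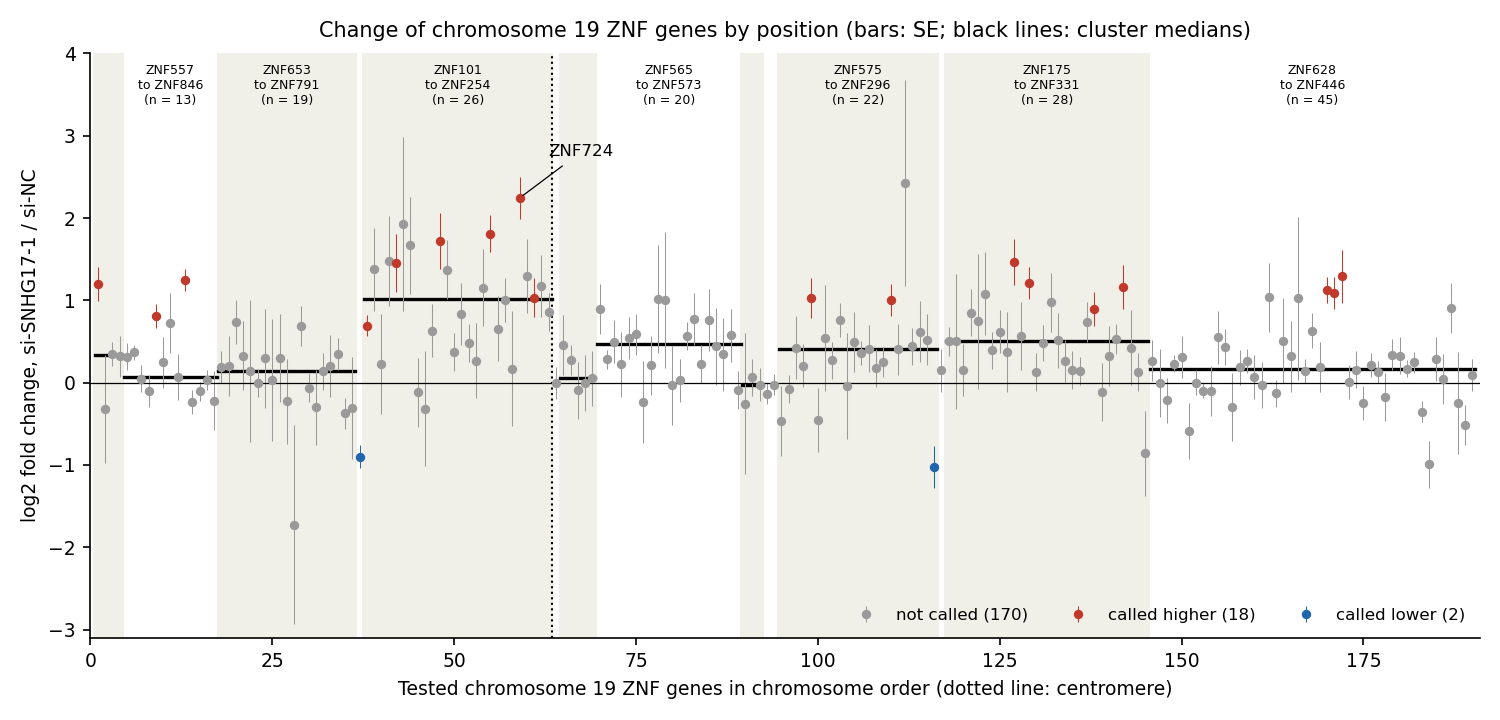
Log2 fold change of each of the 190 tested members (points, bars give the standard error) in order along chromosome 19, with cluster medians as black lines for clusters of 3 or more genes, labels on the clusters of 10 or more and shading that alternates between clusters. The median of the ZNF724 cluster (1.02) lies above that of every other cluster, and the 2 genes called lower, ZNF333 and ZNF296, lie outside it.

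The ZNF724 cluster holds 37 members, of which 26 could be tested. Of these, 24 were positive, 6 (23.1%) were called higher and 0 lower, beside 5.25% and 5.21% of all genes tested. In 20, all si-SNHG17-1 libraries lay above all si-NC libraries, and in 0 below, beside 16.4% and 17.3% of all genes tested. The 24 and the 20 include ZNF486 and ZNF737, which passed the filter through the si-SNHG17-1 libraries alone. ZNF66 and ZNF730 passed it through the si-NC libraries alone. At an unadjusted p under 0.05 in edgeR, 15 were higher and 0 lower, beside the 13.1% and 13.7% of all genes. Their summed level was 57.9, 85.3 and 74.1 CPM in si-NC against 152, 125 and 150 CPM in si-SNHG17-1. Without ZNF724 the sum was 55.8, 81.8 and 72.0 CPM against 139, 115 and 136 CPM, so the groups stayed apart when the leading gene was removed. The 15 other tested genes that lie in the same stretch, none of them members, had a median of 0.12 with 0 called higher and 0 lower in edgeR. The count of 6 higher was 3 without si-NC replicate 3 and 2 without si-SNHG17-1 replicate 1 or 3, and the cluster's median stayed between 0.86 and 1.15.

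ZNF724 (ENSG00000196081.9; GRCh38 chr19:23221599-23250390, minus strand) had the largest fold change among the called members. It was counted at 79, 148 and 85 in si-NC against 502, 429 and 419 in si-SNHG17-1, or 2.10, 3.54 and 2.14 CPM against 13.1, 10.2 and 13.6 CPM. The lowest treated library was well above the highest control library. On the log2 scale it rose by 2.24 ± 0.26 (SE; quasi-likelihood test of edgeR, adjusted p = 0.00353), and the call held with any library left out. An exact two-sided permutation test of its log2 CPM gave p = 0.1, the smallest value 3 against 3 libraries allow. In the annotation, 1487 of its exon bases also belong to AC092329.3 on the same strand, a gene listed at 0 in every library, so the 2 cannot be separated by these counts. Of its 50-base stretches, 48.3% recur in another gene, and 7.67% in a gene whose exons it does not overlap.

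Its neighbours were less changed or less steady. Going toward the telomere, the nearest tested genes ZNF730, ZNF257 and ZNF43 had log2 fold changes of 0.17, 1.00 and 0.66 and were not called (edgeR adjusted p = 0.908, 0.0559 and 0.343). Going toward the centromere lay ZNF91, ZNF675 and ZNF726. ZNF91, which is known to repress SVA retrotransposons, stood at 2.18, 1.05 and 4.36 CPM in si-NC against 6.83, 5.32 and 6.51 CPM in si-SNHG17-1. Its groups did not overlap, but the spread within si-NC was wide and the log2 fold change of 1.30 was not called (edgeR adjusted p = 0.116). ZNF726 had 1.17 (edgeR adjusted p = 0.0931).

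ZNF675, known as an inhibitor of signalling through TRAF6, was counted at 154, 284 and 163 in si-NC against 442, 375 and 315 in si-SNHG17-1. The groups did not overlap and the log2 fold change was 1.03 ± 0.24 (SE; edgeR adjusted p = 0.0367), a call kept in only 1 of the 6 fits that omit a library, in which the adjusted p reached 0.125. By coding sequence, the genes closest to ZNF724 were ZNF723 (88.0% identity), ZNF43 (87.9%) and ZNF91 (87.8%), among members aligned over at least 80% of the ZNF724 coding sequence. ZNF723 was at 0 in every library, and neither of the others was called.

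ZNF100 was the steadiest riser of the cluster after ZNF724. It had 73, 143 and 101 counts in si-NC against 363, 389 and 279 in si-SNHG17-1, with treated libraries lying between 9.08 and 9.50 CPM. The log2 fold change was 1.81 ± 0.23 (SE; edgeR adjusted p = 0.00479), and the call held with any library left out. ZNF430 rose from 60, 139 and 129 counts to 360, 262 and 348, by 1.72 ± 0.34 (edgeR adjusted p = 0.0220). That call was lost without si-NC replicate 3, si-SNHG17-1 replicate 1 or si-SNHG17-1 replicate 3, with an edgeR adjusted p of up to 0.0832.

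ZNF93, a gene whose protein is known to silence LINE-1 elements, rose from 23, 48 and 26 counts to 100, 86 and 61. Its change of 1.45 ± 0.35 (edgeR adjusted p = 0.0404) rested on few reads and was kept in 1 of the 6 fits that omit a library, in which the adjusted p reached 0.141. ZNF101 had the smallest change of the called members and tight groups, with 8.92, 8.48 and 8.45 CPM in si-NC against 13.9, 13.1 and 14.8 CPM in si-SNHG17-1. Its log2 fold change was 0.69 ± 0.13 (edgeR adjusted p = 0.0179), kept in 2 of 6 such fits, with an adjusted p of up to 0.0683.

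Several genes of the cluster had larger fold changes and were not called. ZNF486 went from 5, 32 and 0 counts to 46, 46 and 36, a log2 fold change of 1.92 with a standard error of 1.06 (edgeR adjusted p = 0.296). ZNF714 went from 153, 328 and 130 counts to 593, 382 and 456 (1.37, edgeR adjusted p = 0.0525). In both the groups stood apart, and the control libraries varied widely among themselves. ZNF626 and ZNF66, at -0.12 and -0.32, were the tested genes of the cluster with a negative change. ZNF486 and ZNF737 (5, 9 and 5 counts against 19, 19 and 18) were among 5 tested chromosome 19 members that reached the filter's level in every treated library but not in every control. ZNF66 and ZNF730 were the 2 that reached it in every control but not in every treated library. Of the 11 untested members, ZNF98 had 0, 0 and 0 counts in si-NC against 16, 8 and 7 in si-SNHG17-1, and 41.1% of its 50-base stretches recur in other genes. Over the 37 members of the cluster the median share of 50-base stretches that recur in a gene without exon overlap was 3.83%.

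**Figure D3:**
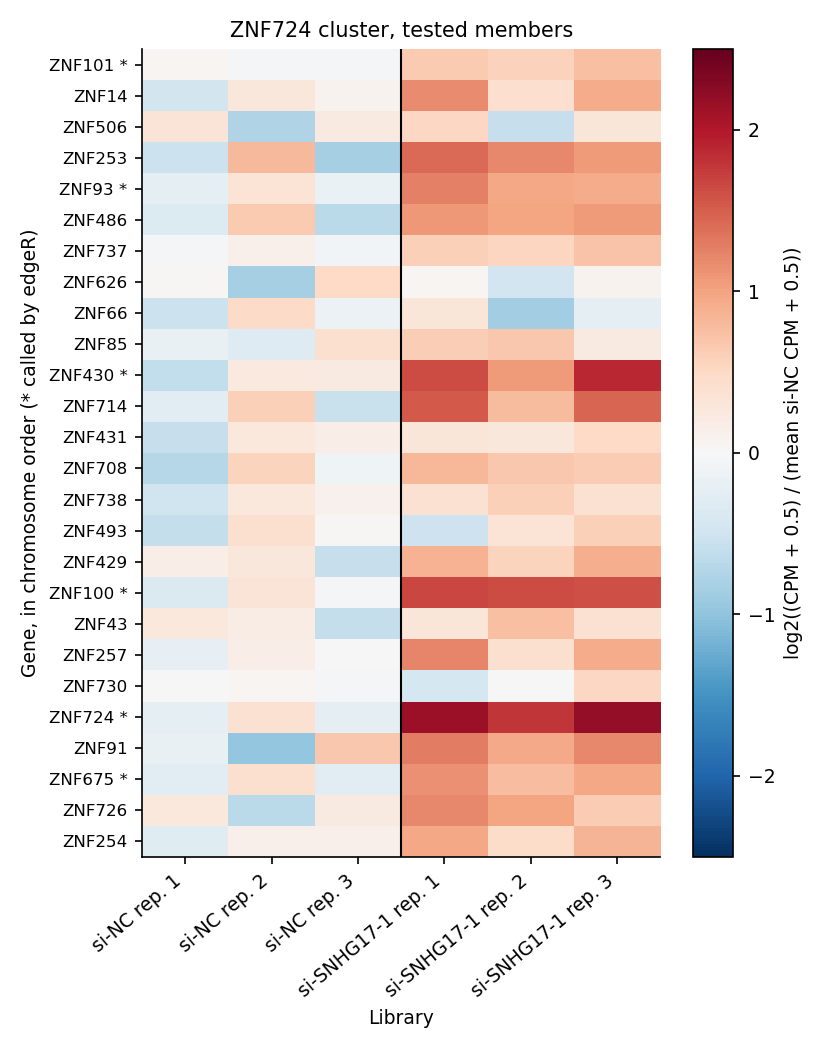
The 26 tested genes of the ZNF724 cluster in chromosome order (rows) in the 6 libraries (columns), coloured by log2 of CPM plus 0.5 over the si-NC mean plus 0.5. Nearly all rows are redder in the 3 si-SNHG17-1 libraries, with ZNF626, ZNF66, ZNF730 and ZNF493 as rows without a clear split between groups, and asterisks mark the 6 called genes.

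Outside that cluster, 3 genes called higher or lower kept the call with any library left out. ZNF426 (19p, ZNF557 to ZNF846 cluster) had 489, 492 and 422 counts in si-NC against 1131, 1059 and 894 in si-SNHG17-1. The level went from 11.8 ± 1.17 to 27.9 ± 2.45 CPM (SD, n = 3 each), a log2 fold change of 1.24 ± 0.14 (SE; edgeR adjusted p = 0.00311), the smallest adjusted p of all members. The cluster's median was 0.07, and ZNF317 was its only other called gene.

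ZNF134, near the end of 19q, had 209, 267 and 219 counts in si-NC against 488, 602 and 338 in si-SNHG17-1, and no treated library overlapped a control. Its log2 fold change was 1.12 ± 0.16 (edgeR adjusted p = 0.00740). ZNF211, the next gene along, rose by 1.09 ± 0.20 (edgeR adjusted p = 0.0165), a call lost without si-SNHG17-1 replicate 1 or 3, where the adjusted p reached 0.0639. ZNF154, a gene known to be silenced by promoter methylation in many tumours, lies in the same stretch and had 24, 32 and 22 counts against 68, 67 and 44. At 1.29 ± 0.32 it was just inside the threshold (edgeR adjusted p = 0.0459) and lost the call with any library left out, with an adjusted p between 0.0736 and 0.152.

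ZNF333, a lone member at 14.7 Mb on 19p, was the more stable of the 2 genes called lower. It had 412, 426 and 447 counts in si-NC against 235, 227 and 180 in si-SNHG17-1. The level fell from 10.8 ± 0.547 to 5.80 ± 0.384 CPM, a log2 fold change of -0.90 ± 0.14 (edgeR adjusted p = 0.0104), kept with any library left out. Its exons overlap those of ADGRE2 on the opposite strand over 1354 bases, and whether the authors counted by strand is not given in the sources used here. ZNF296, on 19q, had 313, 342 and 359 counts in si-NC against 156, 238 and 86 in si-SNHG17-1. Its fall of -1.02 ± 0.26 (edgeR adjusted p = 0.0452) was kept in 1 of the 6 fits that omit a library, in which the adjusted p reached 0.143.

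The other 8 called genes were all higher, with log2 fold changes between 0.81 (ZNF317) and 1.47 (ZNF616). On 19p these were ZNF554 (1.20) and ZNF317. On 19q they were ZNF45 (1.03) and ZNF227 (1.01) in the ZNF575 to ZNF296 cluster, and ZNF616, ZNF766 (1.21), ZNF320 (0.90) and ZNF845 (1.16) in the ZNF175 to ZNF331 cluster. ZNF766 went from 188, 327 and 297 counts to 572, 643 and 514 (edgeR adjusted p = 0.0110), and only leaving out si-SNHG17-1 replicate 3 ended the call (0.0508). In ZNF320, which lost the call with any library left out (edgeR adjusted p from 0.0644 to 0.118), 75.2% of 50-base stretches recur in other genes, chiefly ZNF468, with which it shares 6021 exon bases. ZNF227 overlaps ZNF235 on the opposite strand over 970 exon bases. Of the 20 called members, 5 kept the call whichever of the 6 libraries was omitted and 15 lost it at least for 1.

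**Figure D4:**
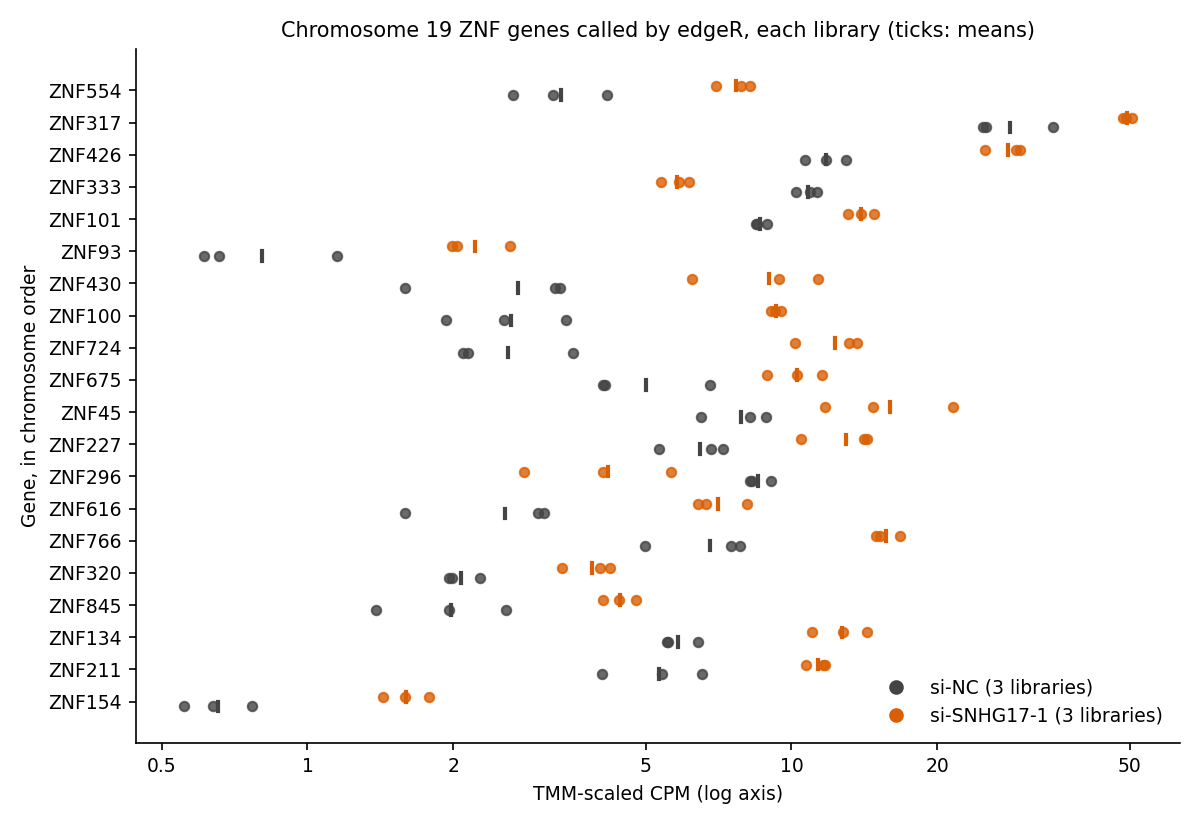
CPM on a log axis (horizontal) of the 20 called members in chromosome order (vertical), a point for each library and a tick for each group mean. In all 20 the groups do not overlap, and ZNF724 has the widest gap (2.60 ± 0.823 CPM in si-NC against 12.3 ± 1.87 CPM in si-SNHG17-1, SD, n = 3 each).

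The most abundant gene per kb of exon in each remaining cluster was mostly not called. ZNF700 (-0.01), ZNF507 (0.00), ZNF780A (-0.02), ZNF574 (-0.13), ZNF473 (0.15), ZNF428 (0.42), ZNF302 (0.46), ZNF57 (0.35) and ZNF738 (0.48) were not called, with edgeR adjusted p between 0.186 and 0.997. With a library left out, ZNF428 ranged from 0.07 to 0.85, ZNF302 from 0.13 to 0.79, ZNF738 from 0.27 to 0.65 and ZNF473 from -0.03 to 0.43. The lowest values came without si-NC replicate 1 for ZNF428 and ZNF738, without si-SNHG17-1 replicate 3 for ZNF302 and without si-SNHG17-1 replicate 2 for ZNF473. ZNF473 takes part in processing histone messenger RNA ends. ZNF331, an imprinted gene, split the treated libraries, with 22.5, 21.9 and 20.9 CPM in si-NC against 7.67, 4.89 and 23.6 CPM in si-SNHG17-1. Its change of -0.86 was not called (edgeR adjusted p = 0.335), and si-SNHG17-1 replicate 3 lay above all controls. Without that library the change was -1.78 and called lower (edgeR adjusted p = 0.0183), and without si-SNHG17-1 replicate 2 it was -0.48 and not called.

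In the promoters, the shared word lay almost entirely on 19p. The table of RefSeq promoters covers 250 bases before to 50 after each start site and held 215 of the 249 members. TCCAATCA was present on either strand in 53 of them (24.7%), in 10.1% of the ZNF genes of other chromosomes and in 1.90% of all genes of the table. On the gene's own strand it was in all 29 matched members of the ZNF724 cluster, in 18 of 24 in the ZNF653 to ZNF791 cluster and in 4 of 5 in the ZNF554 to ZNF77 cluster. It was in 0 of 14 in the ZNF557 to ZNF846 cluster and in 0 of 142 on 19q, where 1 member held it on the other strand. In the ZNF724 cluster the word began between 88 and 24 bases before the start site, at a median of 58.

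Genes with the word changed by different amounts in different clusters. The 23 tested genes with the word in the ZNF724 cluster had a median log2 fold change of 1.03 and 6 called higher, whereas the 14 with the word on the gene strand in the ZNF653 to ZNF791 cluster had 0.17 and 0 called in edgeR. On 19q, 110 matched tested genes had the word on neither strand. Their median was 0.29, and 8 were called higher and 1 lower, while 5.25% of all genes tested were called higher and 5.21% lower. Within the ZNF724 cluster, the 12 tested genes with 2 copies had a median of 1.27 and 4 called higher, and the 11 with 1 copy had 0.86 and 2 called higher. The genes with 2 copies include ZNF486 and ZNF737, which passed the filter through the si-SNHG17-1 libraries alone. Those with 1 copy include ZNF66 and ZNF730, which passed it through the si-NC libraries alone. The filter thus sets these 2 medians further apart, and no conclusion is drawn from them. By copy number, the ZNF554 to ZNF77 cluster went the other way. There ZNF554, with 0 copies, had 1.20 and was called higher. ZNF555 (2 copies), ZNF57 (3) and ZNF77 (5) had -0.32, 0.35 and 0.32 and were not called. ZNF724, ZNF430, ZNF93 and ZNF675 have 2 copies in the stretches printed above, and ZNF100 and ZNF101 have 1. These words were chosen after the promoters were read, and the difference between copy numbers was not tested.

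Other words were searched on both strands. CCAAT, which lies inside the longer word, was in 56.7% of the matched members and in 39.7% of all genes of the table. CTGTCACT was in 26 of 29 matched members of the ZNF724 cluster and in 19.5% of members, against 2.35% of all genes. CTTCCGG, which holds the core read by ETS factors, was in 47.4% of members and 12.2% of all genes, and GGGCGG, a GC box, in 71.2% and 48.3%.

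**Figure D5:**
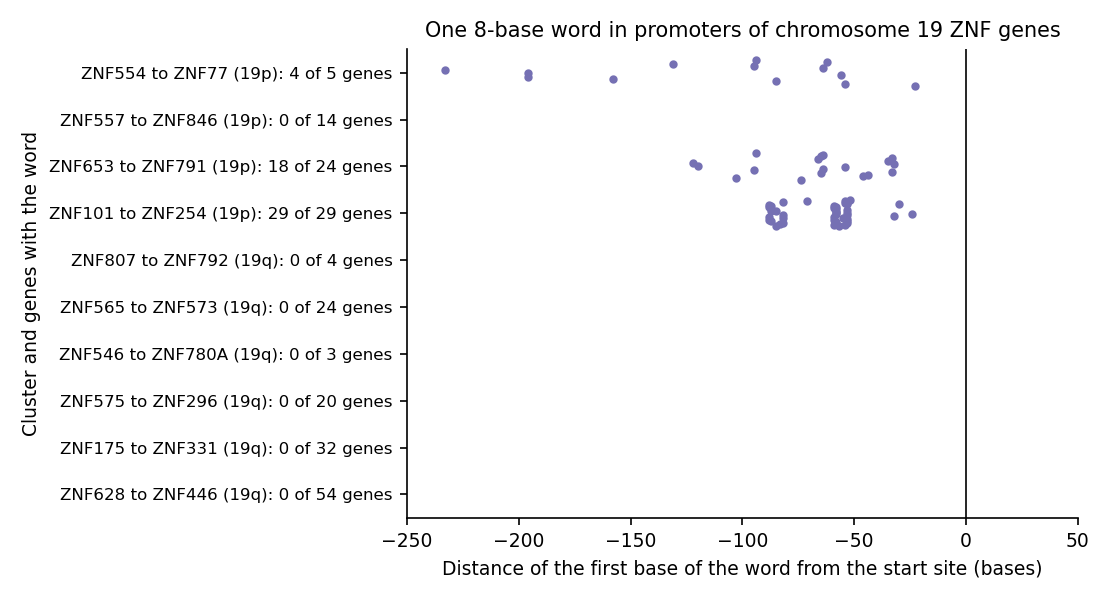
Distance in bases from the start site (horizontal axis, 0 at the start) of each occurrence of the 8-base word on the gene's strand, for clusters with 3 or more matched promoters (vertical axis, with the number of genes holding it). In the ZNF724 cluster the 44 occurrences gather in 2 bands between 88 and 24 bases before the start, and no cluster on 19q has an occurrence.

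Related genes were compared by the same counts. The ZNF genes of other chromosomes, 218 tested, had a median of 0.20, 70.6% positive, 26 called higher and 3 lower. These calls are 11.9% and 1.38% of that set, beside 9.47% and 1.05% of the tested members and 5.25% and 5.21% of all genes tested. The share called higher was not larger on chromosome 19, but the 2 sets differ in level. The tested members had a median of 5.67 CPM and a median SE of 0.27, against 16.8 CPM and 0.19 for the ZNF genes elsewhere. The part of this difference in the shares was not tested. The 1072 other tested genes of chromosome 19 had a median of -0.01, 48.9% positive, 57 called higher (5.32%) and 58 lower (5.41%). Chromosome 19 symbols of other zinc finger forms start with ZFP, ZSCAN, ZIM, ZIK or ZKSCAN, or are ZNF with another suffix. The latter can be antisense or readthrough genes that share exons with members. This set had a median of 0.34 over 15 tested, which are also counted among the 1072. In edgeR 0 were called in either direction, and 1 each way had an unadjusted p under 0.05. The median was thus above 0 in both sets of ZNF genes and close to 0 in the other genes of the chromosome. No test of the difference between these sets was made.

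The co-repressor genes through which KRAB proteins are known to act were split between positive and negative changes, with more called higher than lower. TRIM28, the scaffold that binds the KRAB domain, stood at 217 ± 10.7 CPM in si-NC against 214 ± 16.4 CPM in si-SNHG17-1 (log2 fold change -0.02, edgeR adjusted p = 0.928). SETDB1 had 0.27 (edgeR adjusted p = 0.116). Of the 39 genes of this list, all tested, 4 were called higher and 1 lower. That is 10.3% and 2.56%, beside 5.25% and 5.21% of all genes tested. The median was 0.07, and 51.3% were positive. HDAC1, a histone deacetylase, rose from 84.7 ± 4.37 to 146 ± 4.31 CPM (0.79, edgeR adjusted p = 0.00206), and CHD3 and MTA1, which sit with it in the NuRD complex, rose by 0.41 and 0.54. HDAC1 and CHD3 kept the call with any library left out, and MTA1 kept it in 5 of the 6 such fits. ATF7IP (0.47), a partner of SETDB1, and CBX3 (-0.33), an HP1 protein, lost it with any library left out.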

How the data were processed

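RNA sequencing gave 6 libraries, 3 per group. The deposited table holds whole-number counts for each gene, without normalisation by the authors. The aligner was HISAT2 and the build GRCh38, per the submitters' processing notes. The sources used here do not give the counting program, annotation release or strand setting. Counts were filtered with filterByExpr (minimum count 10, minimum total 15), scaled with TMM and compared with edgeR 4.0.16 (R 4.3.3), quasi-likelihood F test without a block, with p-values adjusted by Benjamini-Hochberg over every tested gene. A standard error (SE) is the size of the log2 fold change over the root of its F statistic. A floor of 3 counts was 0.0712 to 0.0977 CPM and covers counting error only. The pipeline was tested on simulated data.

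All 249 members were found in GENCODE 29, 242 with identical coordinates. Exon lengths, exon overlaps, shared 50-base stretches and coding sequence identity come from that release. Protein features planned for this comparison were not used here. Clusters used a gap of 1 Mb, and members ending before 25 Mb were counted as 19p. Named genes are ZNF724, called members, the most abundant per kb in each cluster, the neighbours and closest relatives of ZNF724, those nearest the threshold and co-repressor genes. ZNF486, ZNF714, ZNF626, ZNF66, ZNF737 and ZNF98 were chosen after their values were seen. Members and lists were chosen with earlier results of these data known. Alternatives were total counts, median-of-ratios factors, no filter, a filter of 1 CPM in 3 libraries, DESeq2 1.42.0, limma-voom (limma 3.58.1), a replicate block, each library left out, clusters cut at gaps of 0.5 Mb, and protein-coding members only.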

Additional observations from a re-analysis of the deposited data

How the results depend on the processing

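ZNF724 kept its direction and its call under every alternative run, with a log2 fold change between 2.11 and 2.54. Medians of the members (0.25 to 0.33) and of the ZNF724 cluster (0.86 to 1.15) stayed above 0 throughout, while counts of called genes moved widely. Cutting clusters at 0.5 Mb gave 20 clusters instead of 16 and left the ZNF724 cluster as it was, and protein-coding members alone gave 18 higher and 2 lower. The cause was not tested for the moves below.

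With DESeq2, 28 members were higher, 16 on 19p and 12 in the ZNF724 cluster, with 2 lower on 19q and 2 lower co-repressor genes, also the count with the 1 CPM filter. Median-of-ratios factors gave 0 lower co-repressor genes. Without a filter (more genes tested), 1 member was lower, 5 on 19q were higher and 0 lower, 627 of all genes were lower, 16 ZNF genes elsewhere were higher, other chromosome 19 genes gave 37 and 34, and 0 co-repressor genes were lower. With total counts, 1 member was lower, 0 on 19q and 0 co-repressor genes, and medians were 0.31 (19q), 0.24 (ZNF elsewhere) and, reversed, 0.04 (all genes).

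Same-numbered libraries did not deviate together (correlations -0.0172, -0.0367 and -0.0153), so the numbers only name libraries. Under the replicate block, 7 members were higher and 0 lower, 3 higher and 0 lower on 19p, 4 and 0 on 19q, 2 higher in the ZNF724 cluster, 273 and 259 of all genes, 5 and 0 of ZNF genes elsewhere, 17 and 11 of other chromosome 19 genes, and 1 and 0 of co-repressor genes. All 7 were among the 20 called members.

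With each library left out, counts of members ranged from 5 to 16 higher and 1 to 4 lower, on 19p from 3 to 10 higher, on 19q from 1 to 9 higher and 0 to 3 lower, in the ZNF724 cluster from 2 to 7 higher, for all genes from 313 to 694 higher and 264 to 705 lower, for ZNF genes elsewhere from 5 to 18 and 0 to 2, for other chromosome 19 genes from 23 to 36 and 8 to 37, and for co-repressor genes from 0 to 1 lower. Medians ranged from 0.31 to 0.48 (19p), 0.22 to 0.29 (19q), 0.17 to 0.27 (ZNF elsewhere), 0.29 to 0.60 (other zinc finger names) and -0.04 to 0.11 (co-repressor genes).

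Genes near 0 changed sign. ZNF700 was 0.03 with total counts, 0.01 with the 1 CPM filter and between -0.13 and 0.08 with a library left out (positive at 0.08, 0.03, 0.06 and 0.01). ZNF730 was -0.17 with limma-voom, -0.06 under the block and -0.51 without si-SNHG17-1 replicate 3. ZNF507 was -0.02 under the block and -0.02, -0.09, -0.16 and -0.01 among a range of -0.16 to 0.19 with a library left out. ZNF780A was 0.02 with total counts and 0.13, 0.02 and 0.08 among a range of -0.18 to 0.13 with a library left out, and ZNF473 ranged from -0.03 (without si-SNHG17-1 replicate 2) to 0.43.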

Other observations

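Zinc finger genes elsewhere in the genome held some of the steadiest rises. ZNF184, on chromosome 6 beside the histone gene cluster, went from 8.74 ± 0.668 CPM in si-NC to 23.2 ± 1.66 CPM in si-SNHG17-1 (SD, n = 3 each), a log2 fold change of 1.41 (edgeR adjusted p = 0.00196). ZNF26 on chromosome 12 went from 11.2 ± 0.397 to 22.8 ± 2.80 CPM (1.03, edgeR adjusted p = 0.00577) and ZNF860 on chromosome 3 from 3.54 ± 0.0409 to 7.58 ± 0.353 CPM (1.10, edgeR adjusted p = 0.00648). All 3 kept the call with any library left out. ZNF624 on chromosome 17 had the largest change of that set at 2.13 and kept the call in 1 of 6 such fits. The 3 called lower were ZNF451 (-0.49), ZNF593 (-0.59) and ZNF778 (-0.57), none of which kept the call in all 6 fits. These genes were chosen after their values were seen.

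Among clusters with at least 10 other tested genes in their span, the highest median of those genes was found in the ZNF565 to ZNF573 span on 19q. The 11 tested genes there that are not members had a median log2 fold change of 0.59 and 1 called higher, beside 0.47 for the 20 tested members there. Members are set by symbol alone. In the annotation, ZFP30 and antisense genes such as ZNF529-AS1 and ZNF790-AS1 lie in that span and share exon bases with members. Their part in the median was not tested. In the ZNF724 span the corresponding median was 0.12.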
